A study of Mus musculus with 21 samples.

Results

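The MHC class II genes described here were 10 genes of the 27179 listed in the count tables, chosen by name: H2-Aa, H2-Ab1, H2-Eb1, H2-DMa, H2-DMb1, H2-DMb2, H2-Oa, H2-Ob, Cd74 and Ciita. They were measured by mRNA-seq in the podocyte fraction of the kidney cortex of male wildtype C57BL/6J mice. The 21 libraries came from 6 young mice (4 months old, untreated), 7 middle-aged mice given saline and 8 middle-aged mice given MCC950, an inhibitor of the NLRP3 inflammasome. The middle-aged mice were injected intraperitoneally for 6 weeks from 18 months of age, those of the MCC950 group with 10 mg/kg, and were 19.5 months old at collection. The young mice received no injection, so age and the saline injections cannot be told apart in the comparison with young mice. The fraction was enriched with antibodies to nephrin and magnetic beads and is not a pure cell type.

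MHC class II molecules present peptides from the endosomal pathway to CD4+ T cells. An alpha and a beta chain assemble in the endoplasmic reticulum with the invariant chain, which blocks the peptide groove and directs the complex to endosomes. There proteases trim the invariant chain to a short fragment, H2-DM exchanges this fragment for other peptides, and H2-O restrains H2-DM. Transcription of these genes depends on CIITA, a coactivator that does not bind DNA itself and is recruited by factors bound to the X and Y boxes upstream of the genes. Dendritic cells, macrophages and B cells are known for constitutive or readily induced expression, while most epithelial cells show little until they are exposed to interferon gamma.

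Total counts were 27375870 to 36827823 in young, 45772937 to 84876399 in saline and 35440472 to 58247271 in MCC950 libraries, and the median share of mitochondrial genes was 71.1%, 68.6% and 57.5%. The labelled cell type is podocyte. All 12 podocyte markers were detected, with a summed level of 667 to 1529 CPM (read counts scaled to a common library total) in young, 239 to 415 in saline and 315 to 572 in MCC950 libraries. The 15 macrophage and monocyte markers summed to 555 to 2695 CPM in young, 1888 to 4462 in saline and 1210 to 4363 in MCC950 libraries. Nphs1, which encodes nephrin, the target of the enrichment, ran from 23.6 to 62.6 CPM in young, 1.56 to 9.48 in saline and 7.46 to 23.6 in MCC950 libraries. Macrophages and monocytes are known to express class II genes, and a change in the number of such cells and a change in the RNA per cell cannot be told apart in these bulk libraries.

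Of the 10 genes, 8 lie in the H2 region of chromosome 17, and Ciita and Cd74 lie on other chromosomes. In GENCODE on GRCm38, the region runs from H2-Oa (start 34092340) through H2-DMa, H2-DMb2, H2-DMb1, H2-Ob, H2-Ab1 and H2-Aa to H2-Eb1 (end 34316674), with H2-Aa on the minus strand and the other members on the plus strand. H2-DMb1 and H2-DMb2 are neighbouring copies of the beta chain gene of H2-DM. How reads that fit more than 1 gene were counted is not given in the sources used here, so the split of reads between these copies is uncertain. The RefSeq promoter table on GRCm38.p6 held a window for 7 of the 10 genes, and H2-Ab1, Cd74 and Ciita had none.

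The 250 bases before the start are shown for H2-Aa (minus strand, chr17:34287824-34288073), H2-Eb1 (plus strand, chr17:34305617-34305866) and H2-Ob (plus strand, chr17:34238655-34238904), which are the classical chain genes with a window and the chromosome 17 member of smallest fold change with age. Those of H2-DMb1 (chr17:34152941-34153190) and H2-DMb2 (chr17:34144999-34145248), both on the plus strand, are added because their matches align between the copies; they were chosen after the letters had been read. Capitals mark the Y box core ATTGG on the gene's own strand and, where present, an X box core ACNGATG with at most 1 mismatch whose first base lies 26 to 32 bases before that of the Y box core.
H2-Aa: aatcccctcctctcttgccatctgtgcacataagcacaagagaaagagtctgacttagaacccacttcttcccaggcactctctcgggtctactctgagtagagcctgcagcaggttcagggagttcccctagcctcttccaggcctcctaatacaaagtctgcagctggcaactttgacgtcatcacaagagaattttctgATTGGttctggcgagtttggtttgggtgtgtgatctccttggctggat
H2-Eb1: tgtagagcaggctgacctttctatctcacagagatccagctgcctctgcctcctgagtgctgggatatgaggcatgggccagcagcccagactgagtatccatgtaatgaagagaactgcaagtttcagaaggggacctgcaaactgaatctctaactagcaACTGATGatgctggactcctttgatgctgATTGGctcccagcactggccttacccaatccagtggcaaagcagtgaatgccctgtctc
H2-Ob: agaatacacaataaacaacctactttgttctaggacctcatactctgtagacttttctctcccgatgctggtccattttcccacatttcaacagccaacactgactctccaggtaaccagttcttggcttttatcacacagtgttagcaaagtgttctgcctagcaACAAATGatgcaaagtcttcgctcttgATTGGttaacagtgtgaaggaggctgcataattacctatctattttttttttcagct
H2-DMb1: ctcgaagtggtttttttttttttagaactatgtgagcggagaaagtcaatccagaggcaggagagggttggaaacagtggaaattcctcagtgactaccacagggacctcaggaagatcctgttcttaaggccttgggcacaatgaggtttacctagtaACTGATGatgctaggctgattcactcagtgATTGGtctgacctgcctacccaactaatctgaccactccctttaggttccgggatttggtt
H2-DMb2: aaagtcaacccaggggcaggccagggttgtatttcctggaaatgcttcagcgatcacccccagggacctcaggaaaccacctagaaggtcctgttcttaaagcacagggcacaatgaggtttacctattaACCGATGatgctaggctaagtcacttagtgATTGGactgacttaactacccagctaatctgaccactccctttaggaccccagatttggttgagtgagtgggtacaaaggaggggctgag
The Y box core began 48 bases before the start in H2-Aa, 59 in H2-Eb1, 57 in H2-Ob, 61 in H2-DMb1, 90 in H2-DMb2 and 43 in H2-Oa. Of the 2 windows of H2-DMa, 1 held the letters, 198 bases before the start. Searched on both strands, ATTGG was present in 33.8% of all 32851 windows. The spaced arrangement, searched on the gene's strand, was present in H2-Eb1 (29 bases between the first bases of the cores), H2-Ob (27), H2-DMb1 (30) and H2-DMb2 (30), against 0.499% of all windows. The core ACNGATG without mismatch occurred on either strand in 8.31% of all windows, and with at most 1 mismatch in 81.7%. The spacing was set after the letters had been read, so these counts are a description of the windows.

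The class II genes were among the most abundant transcripts of the fraction. By mean CPM over the 21 libraries and outside the 15 mitochondrial genes, Cd74 ranked 2, H2-Eb1 8, H2-Aa 10 and H2-Ab1 12, whereas H2-Oa ranked 8970. Together the 10 genes held a median of 1.62% of the counts outside mitochondrial genes in young, 2.54% in saline and 1.97% in MCC950 libraries. Per kilobase of exon, the mean level in saline libraries was 2187 ± 589 CPM (SD, n = 7) for Cd74, 1511 ± 409 for H2-Aa, 1219 ± 326 for H2-Ab1 and 1053 ± 283 for H2-Eb1. It was 73.5 ± 18.7 CPM per kilobase for H2-DMb1, 46.0 ± 13.1 for H2-DMa, 16.6 ± 2.85 for H2-DMb2, 13.7 ± 3.59 for H2-Ob, 8.06 ± 1.64 for Ciita and 7.52 ± 1.56 for H2-Oa. The order of the 6 most abundant genes was the same in 21 of 21 libraries, although the ranges of H2-Aa, H2-Ab1 and H2-Eb1 overlapped between libraries. H2-Eb1 exceeded H2-DMb1 by 11.5- to 15.5-fold per kilobase in each library. Among the low genes the order was less regular: H2-DMb2 exceeded H2-Ob in 18 libraries, H2-Ob exceeded Ciita in 18, and Ciita exceeded H2-Oa in 16 of 21.

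**Figure D1:**
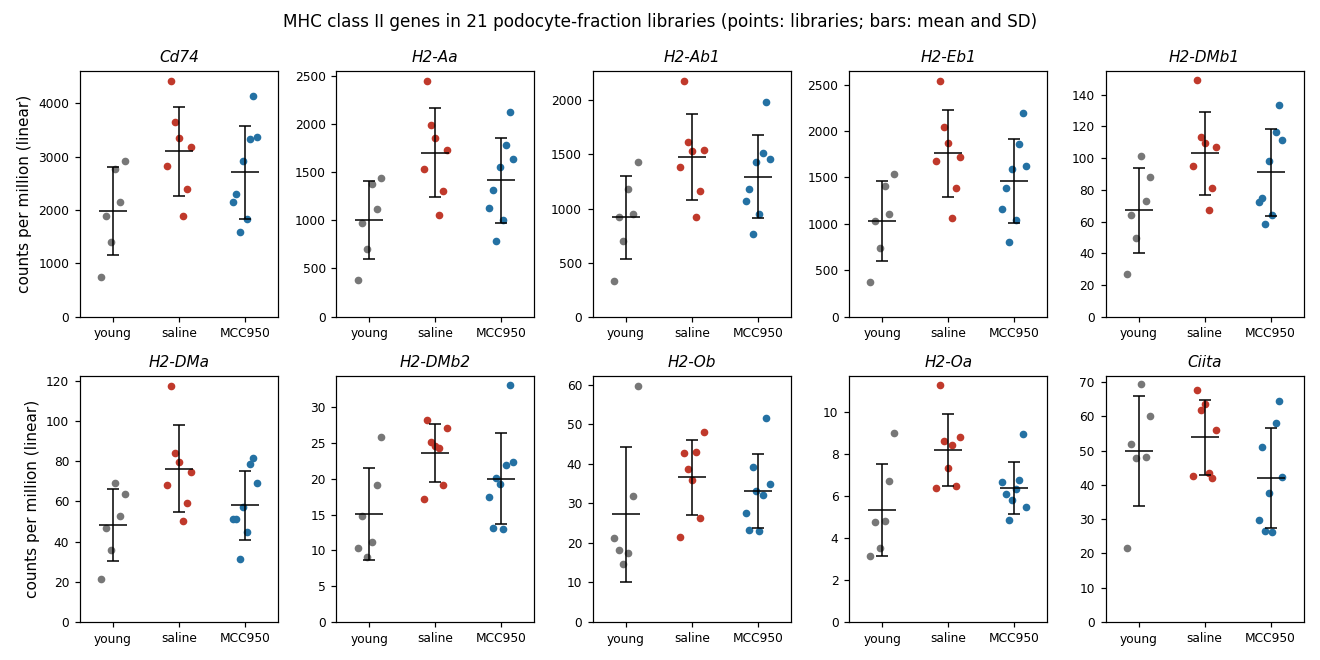
Levels of the 10 MHC class II genes in CPM on linear axes that start at 0, with a point for each of 6 young, 7 saline and 8 MCC950 libraries and bars for the mean and SD. The groups overlapped for all 10 genes, and the lowest young library of the classical chains, Cd74, H2-DMa, H2-DMb1 and Ciita was young replicate 1.

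To ask how class II expression differed with age, saline libraries were compared with young libraries. H2-Aa and H2-Eb1, a classical alpha and a classical beta chain, rose by 1.70-fold each, and the DM beta chain H2-DMb2 and the H2-O alpha chain H2-Oa rose by 1.58- and 1.55-fold. No member fell. These 4 of 10 genes passed an adjusted p of 0.05 in edgeR's quasi-likelihood test, in a comparison in which 12.2% of the 16377 genes tested passed as higher and 12.4% as lower. For none of them did the libraries of the groups fail to overlap, as they did for 9.37% of all genes. All 10 log2 fold changes were above 0, with a median of 0.65, while the median over all genes was 0.02. None of the 10 genes passed the study's own threshold of an unadjusted p under 0.05 with a change above 2-fold, which 4.04% of all genes passed as higher.

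H2-Aa encodes the alpha chain of I-A, the only classical class II molecule with both chains in this strain. Its level was 381 CPM at the lowest, 1046 at the median and 1445 at the highest in young libraries, and 1053, 1733 and 2453 CPM in saline libraries. Of the 7 saline libraries, 5 lay above the highest young library and all 7 above the young median. The log2 fold change was 0.77 (SE 0.27, edgeR adjusted p = 0.0432). H2-Eb1, the I-E beta chain, ran from 369 over a median of 1066 to 1541 CPM in young and from 1065 over 1718 to 2541 CPM in saline libraries. Again 5 saline libraries lay above all young ones, with a log2 fold change of 0.77 (SE 0.28, edgeR adjusted p = 0.0461). H2-Ab1, the I-A beta chain, ran from 326 over 936 to 1430 CPM in young and from 925 over 1535 to 2182 CPM in saline libraries. Its log2 fold change of 0.69 (SE 0.27) missed the threshold (edgeR adjusted p = 0.0661), and its 95% interval of 1.09- to 2.37-fold covered the values of the other classical chains.

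Cd74 encodes the invariant chain. Young libraries held 747 CPM at the lowest, 2023 at the median and 2924 at the highest, and saline libraries 1880, 3173 and 4424 CPM. With 4 of 7 saline libraries above the highest young library, the log2 fold change was 0.64 (SE 0.28, edgeR adjusted p = 0.0952), and Cd74 did not pass the test.

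The H2-DM genes encode the peptide exchange factor. H2-DMb2 ran from 9.01 over 13.0 to 25.8 CPM in young and from 17.1 over 24.6 to 28.2 CPM in saline libraries, and 2 saline libraries exceeded the highest young library. Its log2 fold change was 0.66 (SE 0.23, edgeR adjusted p = 0.0417). H2-DMa, the alpha chain, had medians of 49.8 CPM in young and 74.9 CPM in saline libraries, and H2-DMb1 had 68.4 and 107.02 CPM. Their log2 fold changes of 0.66 (SE 0.25) and 0.62 (SE 0.25) were of the size seen for H2-DMb2, with edgeR adjusted p-values of 0.0563 and 0.0781.

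H2-Oa and H2-Ob encode the chains of H2-O, the inhibitor of H2-DM. H2-Oa was the lowest member, with at most 691 counts in a library. It ran from 3.11 over 4.79 to 8.99 CPM in young and from 6.36 over 8.41 to 11.3 CPM in saline libraries, a log2 fold change of 0.63 (SE 0.20, edgeR adjusted p = 0.0263). All 7 saline libraries exceeded the young median, and 1 exceeded the highest young library. H2-Ob ran from 14.6 over 19.8 to 59.8 CPM in young and from 21.5 over 38.6 to 48.1 CPM in saline libraries. No saline library exceeded the highest young library, young replicate 6, and the log2 fold change of 0.43 (SE 0.28) did not pass (edgeR adjusted p = 0.279).

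Ciita, which encodes the transactivator of the group, had the smallest fold change of the 10 genes with age. It ran from 21.6 over 50.0 to 69.4 CPM in young and from 42.1 over 56.0 to 67.6 CPM in saline libraries. Its log2 fold change was 0.11 (SE 0.24, edgeR adjusted p = 0.772), with a 95% interval of 0.768- to 1.52-fold.

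The number of genes called with age rested on single libraries. It was 0 without young replicate 1, 2 or 3 or without saline replicate 2, and 7 without young replicate 6, whereas the log2 fold change of H2-Aa stayed between 0.60 and 0.91 in the 21 fits that each left out 1 library. Over the whole table, 1705 of 16475, 1551 of 16508 and 1353 of 16511 genes were called higher without young replicate 1, 2 and 3. The counts were 1482 of 16345 without saline replicate 2 and 2270 of 16518 without young replicate 6. Cell type markers moved with the comparison: of 15 macrophage and monocyte markers 4 rose and none fell (median log2 fold change 0.80), and of 10 dendritic cell markers 4 rose and 1, Zbtb46, which endothelial cells also express, fell (median 0.67). Their summed dendritic level was 76.9 to 198 CPM in young and 149 to 244.9 CPM in saline libraries, and no marker of either list was at 0 throughout. With the mean macrophage and monocyte marker level as a covariate, none of the 10 genes was called higher. Ciita was called lower (log2 fold change -0.45, edgeR adjusted p = 0.0143). In that fit the log2 fold change was 0.11 for H2-Aa, 0.11 for H2-Eb1, 0.34 for H2-Oa and 0.35 for H2-DMb2. With the dendritic cell marker level as a covariate no member was called. The log2 fold changes were then 0.20 for H2-Aa, 0.22 for H2-Eb1, 0.27 for H2-Oa and 0.28 for H2-DMb2. With the B cell marker level no member was called either. The log2 fold changes stayed at 0.66 for H2-Aa (SE 0.30, edgeR adjusted p = 0.153) and 0.68 for H2-Eb1. They were smaller than without a covariate for H2-Oa (0.41), H2-DMb2 (0.30) and H2-Ob (-0.0084). With the podocyte marker level the log2 fold change of H2-Aa was 0.97 with a wider error (SE 0.61, edgeR adjusted p = 0.555). Those of H2-Oa and H2-DMb2 were 0.034 and -0.041 in the same fit. Calls fell over the whole table too, from 1996 of 16377 genes called higher without a covariate. They numbered 1775 with the macrophage and monocyte, 1277 with the dendritic cell, 1021 with the B cell and 1 with the podocyte marker level. A marker level of this kind itself differs between the groups, so these fits do not separate cell number from expression per cell.

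**Figure D2:**
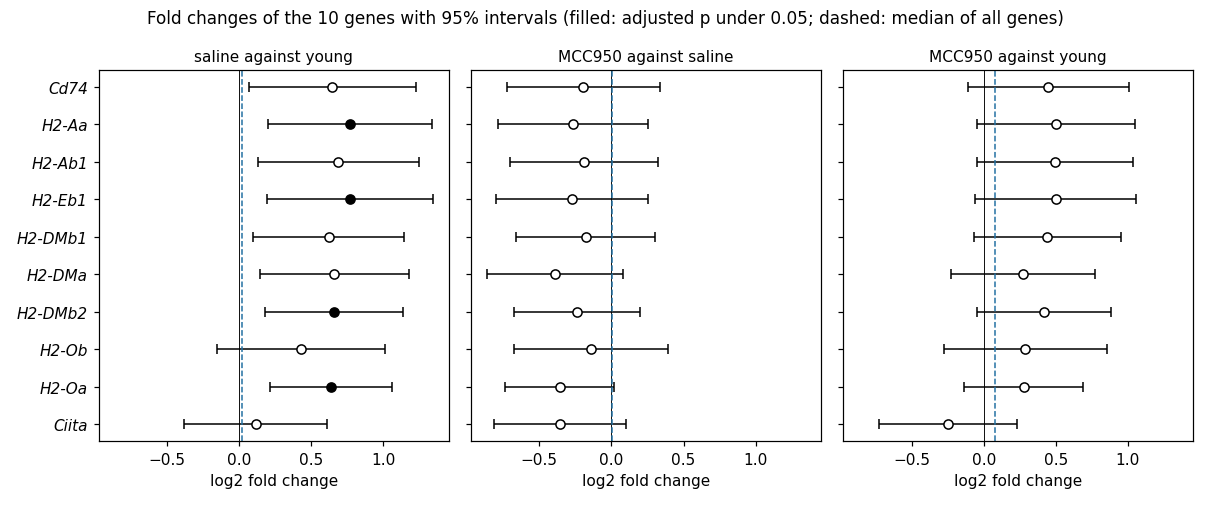
Log2 fold changes of the 10 genes in 3 comparisons with 95% intervals, filled where the adjusted p was under 0.05, with the median of all genes as a dashed line. With age all 10 points lie above 0 and 4 are filled, and in the other comparisons none is filled.

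To ask how MCC950 treatment bore on the class II genes, MCC950 libraries were compared with saline libraries of the same age. None of the 10 genes passed the adjusted threshold in edgeR, and none had an unadjusted p under 0.05. DESeq2 also called 0, where it called 2184 of 21934 genes higher and 1226 lower. Over all genes tested, 4.86% passed as lower and 11.9% as higher, 31.6% had an unadjusted p under 0.05, and 1.74% had groups that did not overlap, as no member had. All 10 log2 fold changes were below 0, with a median of -0.25 against 0.00 over all genes, and these values share their saline libraries with the comparison with age.

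H2-Aa ran from 781 over a median of 1436 to 2124 CPM in MCC950 libraries, within or below the range of saline libraries. Its log2 fold change was -0.27 (SE 0.25, edgeR adjusted p = 0.493), and the 95% interval of 0.579- to 1.19-fold included no change and a reduction to 0.579 of the saline level. H2-Oa came closest to the threshold, from 4.85 over 6.22 to 8.96 CPM, with 5 of 8 libraries below the lowest saline library (log2 fold change -0.36, SE 0.18, edgeR adjusted p = 0.183). H2-DMa had the largest change, -0.39 (SE 0.23, edgeR adjusted p = 0.249), with a median of 54.4 CPM. Ciita ran from 26.4 over 39.9 to 64.6 CPM, with 4 of 8 libraries below the lowest saline library (log2 fold change -0.36, SE 0.22, edgeR adjusted p = 0.275). Cd74, with a median of 2608 CPM and a log2 fold change of -0.20 (SE 0.26), and H2-Ob, with 32.7 CPM and -0.14 (SE 0.26), had smaller values. Proximal tubule markers moved with this comparison: 6 of 10 rose, and their summed level was 1333 to 3354 CPM in saline and 2206 to 5469 CPM in MCC950 libraries. With their mean level as a covariate the log2 fold change of H2-Aa was 0.47 and 9 of the 10 values turned to above 0, and no member was called in either direction. In that fit 434 of all 16377 genes were called higher and 351 lower. The part of the tubule RNA in the MCC950 result was not tested further.

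MCC950 libraries were also compared with young libraries, which are shared with the comparison with age. None of the 10 genes was called, where 21.8% of all genes were called higher and 16.5% lower. None had an unadjusted p under 0.05, as 47.7% of all genes had, and none had groups without overlap (7.94% of all genes). The log2 fold changes were 0.50 for H2-Aa (SE 0.26, edgeR adjusted p = 0.138), 0.50 for H2-Ab1, 0.50 for H2-Eb1 and 0.45 for Cd74. For Ciita the value was -0.25 (SE 0.23, edgeR adjusted p = 0.414), the only one below 0. Against young libraries, then, the 3 classical chains stood at 1.61- to 1.70-fold in saline and 1.41- to 1.42-fold in MCC950 libraries, with intervals that overlapped widely. Without young replicate 6, H2-DMb2 and H2-Ob were called higher in MCC950 than in young libraries (log2 fold changes 0.62 and 0.66), where 3100 of 16518 genes were called higher. Of 10 proximal tubule markers 6 rose in this comparison too. With their mean level as a covariate 7 of the 10 genes were called higher in MCC950 than in young libraries, H2-Aa with a log2 fold change of 1.14 (SE 0.22, edgeR adjusted p = 0.000590). In that fit 3418 of all 16377 genes were called higher and 2627 lower.

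To ask whether the members kept their proportions, the count of each was divided by the H2-Aa count of the same library, which removes what the libraries' class II level has in common. Cd74 stood at 192% to 202% of the H2-Aa count in young libraries and at 179% to 184% in saline libraries, without overlap. The log2 ratio was 0.98 ± 0.028 (SD, n = 6) in young and 0.86 ± 0.015 (SD, n = 7) in saline libraries, a difference of -0.12 (exact two-sided permutation test, p = 0.00117, adjusted p = 0.0105 over 18 ratios). In MCC950 libraries Cd74 ranged more widely, from 175% to 205%, and the difference from saline of 0.07 did not pass (exact permutation test, adjusted p = 0.0887).

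Ciita differed most in proportion. It stood at 4.17% to 6.77% of the H2-Aa count in young and at 2.75% to 4.14% in saline libraries, without overlap, and the log2 ratio was lower by 0.68 in saline libraries (difference -0.68, exact two-sided permutation test, p = 0.00117, adjusted p = 0.0105). The p of Cd74 and of Ciita is the smallest that 7 against 6 libraries can give. Of all 16377 genes tested, 6.55% had a ratio to H2-Aa that was lower in every saline library than in every young library. H2-Aa itself was higher in saline libraries (edgeR log2 fold change 0.77), while Ciita was not called (0.11). A gene without a change of its own has a lower ratio where H2-Aa is higher, so the ratio shows no separate fall of Ciita. In MCC950 libraries Ciita stood at 2.42% to 3.88% of the H2-Aa count, and the difference from saline was -0.12 (exact permutation test, adjusted p = 0.521). The H2-DMb1 ratio was also lower in saline than in young libraries, with a difference of -0.15 (exact permutation test, adjusted p = 0.0350), but this call was lost in 12 of the 13 fits that left out a young or saline library. The ratio of H2-Eb1 was 96.7% to 106.6% in young, 99.1% to 109.5% in saline and 98.9% to 105.2% in MCC950 libraries, with differences of 0.010 and -0.0031 (exact permutation tests, adjusted p = 0.817 and 0.929). H2-Ob varied most within groups, from 1.26% to 5.58% of the H2-Aa count in young libraries, and its ratio did not differ between groups (exact permutation tests, adjusted p = 0.664 and 0.803).

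**Figure D3:**
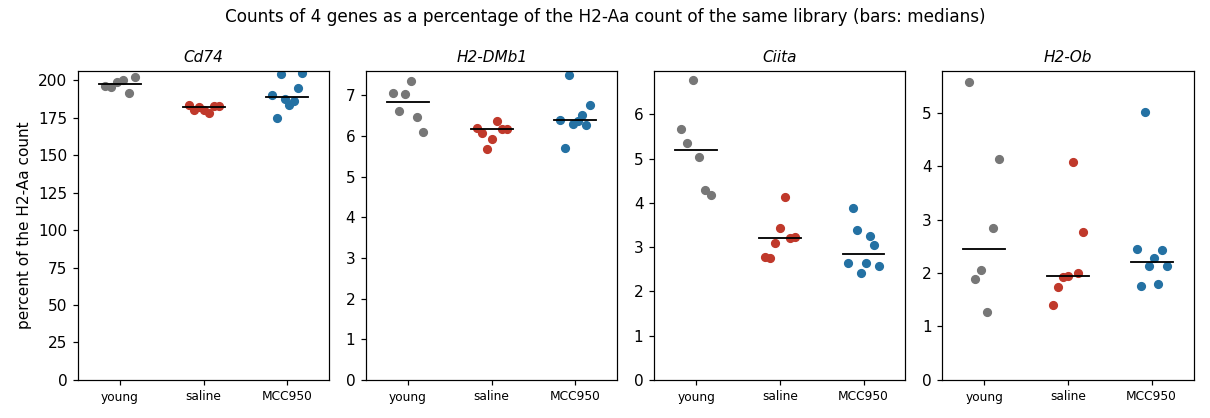
Counts of Cd74, H2-DMb1, Ciita and H2-Ob as a percentage of the H2-Aa count in the same library, on linear axes that start at 0, with a point for each library and a bar for the median. Cd74 and Ciita do not overlap between young and saline libraries, and H2-Ob spreads over 1.26% to 5.58% within the young group.

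The members also differed in how they varied among libraries of the same group. After the group means of log2 CPM had been removed, H2-Aa correlated with H2-Eb1 (Pearson r = 0.997 over 21 libraries), Cd74 (0.995), H2-Ab1 (0.99), H2-DMb1 (0.99), H2-DMa (0.98) and Ciita (0.90). Its correlation was lower with H2-Oa (0.72), H2-DMb2 (0.60) and H2-Ob (0.39). H2-Ob correlated most with H2-DMb2 (0.92) and H2-Oa (0.73), and least with Ciita (0.30). H2-DMb2 had an r of 0.60 with its neighbouring copy H2-DMb1. These values are descriptions over 21 libraries that share their preparation, and no p is given for them.

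**Figure D4:**
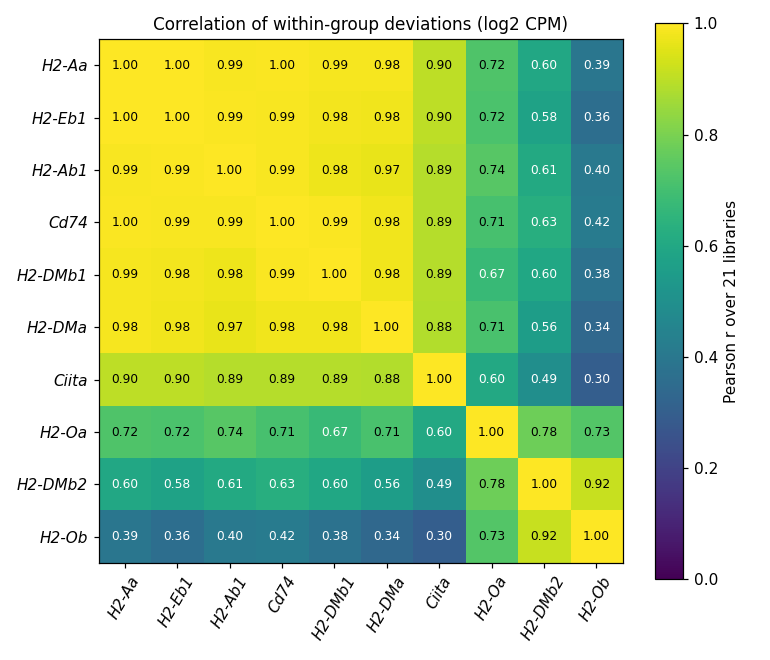
Pearson correlations between the 10 genes over 21 libraries, computed on log2 CPM after removal of the group means, with the value in each cell. A block of 7 genes from H2-Aa to Ciita has values of 0.88 or more, and H2-DMb2 and H2-Ob form the highest value outside it, 0.92.

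The same deviations were compared with the mean level of marker lists for 6 cell types. H2-Aa correlated with the 15 macrophage and monocyte markers (Pearson r = 0.96, Spearman rho = 0.95) and with the 10 dendritic cell markers (r = 0.90, rho = 0.90), each with a permutation p of 1e-05, the smallest that 100000 permutations within groups can give, and an adjusted p of 3e-05 over 6 lists. Within the groups, r with the macrophage and monocyte markers was 0.99 in young, 0.96 in saline and 0.96 in MCC950 libraries, and it was 0.93 without the 2 libraries farthest from the median marker level. No relation to the podocyte markers was detected (r = 0.14, rho = 0.05, permutation p = 0.625 and 0.863, adjusted p = 0.749 and 0.926), nor to endothelial markers (r = -0.01, rho = 0.02, permutation p = 0.968 and 0.926, adjusted p = 0.968 and 0.926). For B cell markers r was 0.15 and rho 0.21 (permutation p = 0.607 and 0.415, adjusted p = 0.749 and 0.623), and without the 2 farthest libraries r was -0.10. For T cell markers r was 0.34 and rho 0.41 (permutation p = 0.149 and 0.0838, adjusted p = 0.298 and 0.168), with 0.22 without the 2 farthest libraries. These pooled values stand over groups that differed in sign. In young, saline and MCC950 libraries r was 0.15, -0.23 and 0.81 with the T cell markers, 0.18, 0.58 and -0.27 with the podocyte markers, 0.37, 0.22 and -0.54 with the endothelial markers, and 0.29, -0.14 and 0.09 with the B cell markers. The differences between groups were not tested.

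All 10 genes were then set against the 6 lists, a family of 60 relations examined after the values above were known. H2-Ob correlated with the 12 B cell markers (r = 0.94, rho = 0.93, permutation p = 1e-05, adjusted p = 4e-05 for r and 4.6e-05 for rho over 60 relations), at 0.96 in young, 0.90 in saline and 0.90 in MCC950 libraries. Without the 2 farthest libraries r was 0.90. H2-DMb2 followed with r = 0.83 and rho = 0.72 to the B cell markers (permutation p = 8e-05 and 0.00164, adjusted p = 0.0003 and 0.00579), and r = 0.73 without the 2 farthest libraries. It also correlated with the dendritic cell markers (r = 0.67, rho = 0.72, permutation p = 0.00484 and 0.00159, adjusted p = 0.0161 and 0.00579), where r was 0.75 without the 2 farthest libraries, and with the T cell markers (r = 0.61, rho = 0.59, permutation p = 0.00509 and 0.00847, adjusted p = 0.0161 and 0.0267). With the macrophage and monocyte markers rho passed and r did not (r = 0.51, rho = 0.59, permutation p = 0.0468 and 0.0119, adjusted p = 0.117 and 0.0357). For H2-Oa and the B cell markers r was 0.60 and rho 0.45 (permutation p = 0.0240 and 0.0717, adjusted p = 0.0627 and 0.165), and 0.32 without the 2 farthest libraries. This r was 0.76 in young, 0.55 in saline and 0.18 in MCC950 libraries. The r of H2-Oa with the dendritic cell markers was 0.72 and rho 0.62 (permutation p = 0.00139 and 0.00703, adjusted p = 0.00491 and 0.0234), and 0.61 without the 2 farthest. With the macrophage and monocyte markers H2-Oa had r = 0.59 and rho = 0.49 (permutation p = 0.0139 and 0.0333, adjusted p = 0.0379 and 0.0869), and r = 0.40 without the 2 farthest. With the T cell markers it had r = 0.53 and rho = 0.48 (permutation p = 0.00985 and 0.0324, adjusted p = 0.0295 and 0.0869), and r = 0.53 without the 2 farthest. For H2-Ob and the macrophage and monocyte markers r was 0.29 and rho 0.27 (permutation p = 0.294 and 0.265, adjusted p = 0.490 and 0.446), and r was 0.42 without the 2 farthest libraries. Its r with the T cell markers was 0.53 and rho 0.50 (permutation p = 0.0117 and 0.0272, adjusted p = 0.0336 and 0.0778), and 0.65 without the 2 farthest. With the dendritic cell markers it had r = 0.48 and rho = 0.44 (permutation p = 0.0586 and 0.0689, adjusted p = 0.141 and 0.165), and r = 0.65 without the 2 farthest. Ciita correlated with the macrophage and monocyte markers (r = 0.91, rho = 0.86, permutation p = 1e-05 and 3e-05, adjusted p = 4e-05 and 0.000129), and r was 0.85 without the 2 farthest libraries. H2-DMa and H2-DMb1 had r of 0.96 each with the same markers.

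**Figure D5:**
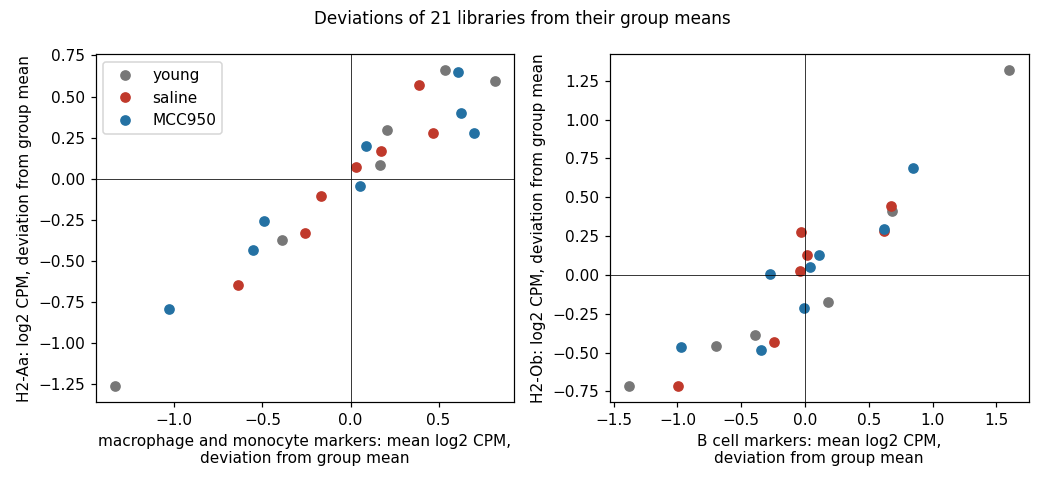
Deviation of each of 21 libraries from its group mean, for H2-Aa against the mean of 15 macrophage and monocyte markers and for H2-Ob against the mean of 12 B cell markers, all in log2 CPM. Points rise together in both panels, with r = 0.96 and r = 0.94, and young replicate 1 is the lowest point of the first panel.

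The 10 other genes most like H2-Aa by this measure, among genes with a mean of at least 0 log2 CPM, were Ly86 (r = 0.99), Unc93b1, Smox, Laptm5, Nckap1l, Rab7b, Axl, Hcls1, Tagap and Arrb2 (r = 0.98 each). Ly86 (MD-1) partners the receptor RP105 on leukocytes, UNC93B1 carries endosomal Toll-like receptors, and Laptm5, Nckap1l, Hcls1 and Tagap are genes of haematopoietic cells. With age, Laptm5 (log2 fold change 0.88), Nckap1l (0.87) and Hcls1 (0.79) rose in edgeR (adjusted p = 0.0197, 0.0237 and 0.0314), and the other 7 did not pass.

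Genes that act before and beside the class II molecules were read from fixed lists. Of the 7 factors that bind class II promoters, Rfx5, the DNA-binding subunit of the RFX complex at the X box, rose with age by 1.35-fold (SE 0.11 on the log2 scale, edgeR adjusted p = 0.00533). It ran from 5.20 to 6.81 CPM in young and 7.18 to 9.52 CPM in saline libraries, without overlap, as 9.37% of all genes did. With MCC950 Rfx5 fell to 0.738-fold of saline (edgeR adjusted p = 0.00667), with libraries at 4.83 to 7.83 CPM. Creb1, whose product binds part of the X box, fell with age to 0.831-fold and was at 0.747-fold of young in MCC950 libraries (edgeR adjusted p = 0.0448 and 0.00145). The remaining 5 factors, the RFX subunits Rfxap and Rfxank and the Y box subunits Nfya, Nfyb and Nfyc, passed in no comparison. The median of the list with age was 0.02 on the log2 scale.

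Of 7 genes from interferon gamma to Ciita described here, 6 passed the filter on low counts. Ifng itself did not and was at 0 to 0.331 CPM. The receptor genes Ifngr1 and Ifngr2 rose with age by 1.47- and 1.65-fold (edgeR adjusted p = 0.0432 and 0.00811), while Jak1, Jak2, Irf1 and Socs1 did not pass the test. With MCC950 only Jak2 of these genes changed against saline, to 0.857-fold (edgeR adjusted p = 0.0440).

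Of the 7 genes for endosomal antigen processing, 4 rose with age and none fell (median log2 fold change 0.69). The largest value was that of the protease Ctsb (1.86-fold, edgeR adjusted p = 0.00142) and the smallest among the 4 that of Ctsd (1.18-fold, adjusted p = 0.0442), with the asparaginyl endopeptidase Lgmn and the thiol reductase Ifi30 at 1.62- and 1.70-fold. Ctss and Ctsl, the cathepsins best known for trimming the invariant chain, did not pass with age, and Ctsl rose with MCC950 by 1.36-fold over saline (edgeR adjusted p = 0.0117). The same 4 genes were higher in MCC950 than in young libraries. Of the genes of class II turnover, none of 3 passed with age. Of 7 genes for contact of presenting cells with T cells, all 7 log2 fold changes with age were above 0 (median 0.80), and Cd80, a ligand of CD28, passed at 2.15-fold (edgeR adjusted p = 0.0228). None of the 7 passed between MCC950 and saline.

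The I-E alpha chain gene H2-Ea is known to be disrupted in C57BL/6 mice. It had 0 to 8 counts per library, did not pass the filter and was at or under 0.225 CPM, while its partner H2-Eb1 stood at 369 to 2541 CPM. H2-Eb2, a further beta chain gene of the region, was low at 48 to 655 counts, and its log2 fold change with age was 0.83 without passing the test.

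Lymphocyte and other markers moved with age as well. T cell markers rose in 5 of 10 cases (summed level 4.16 to 14.4 CPM in young and 12.7 to 24.3 CPM in saline libraries), and Cd28 fell with MCC950 to 0.551-fold (edgeR adjusted p = 0.0418). Of 12 B cell markers Cd79b rose with age (1.99-fold, edgeR adjusted p = 0.0222), with a list median of 0.71, and the summed level was 38.8 to 294 CPM in young and 92.8 to 285 CPM in saline libraries. All 6 plasma cell markers rose with age, from a summed level of 33.1 to 83.9 CPM to 385 to 496 CPM. All 12 podocyte markers and 9 of 10 endothelial markers fell with age, and no marker of these lists was at 0 throughout. The part of these cell types in the class II result was not tested beyond the covariate fits.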

How the data were processed

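Podocyte fractions had been enriched from digested kidney cortex with antibodies and magnetic beads, and mRNA libraries made with TruSeq kits. Per the study's methods, Trim Galore trimmed the reads, Bowtie2 placed them on mm10 (GRCm38), and featureCounts gave 1 count per gene; annotation release, strand setting and multi-mapping rule are not given in the sources used here. The files deposited by the authors hold whole read counts for 27179 genes by Entrez Gene number, and the deposited DESeq2-normalized table was not used. Gene names came from RefSeq (25275) and GENCODE M21 (18), and positions from GENCODE M21.

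Libraries were grouped by their labels. Each library came from 1 mouse. No library duplicated another. Fold changes came from edgeR 4.0.16 in R 4.3.3 (TMM, filterByExpr by group, quasi-likelihood F test, all 3 groups in 1 fit, Benjamini-Hochberg over 16377 genes). CPM used effective library sizes, and log2 CPM for correlations a prior count of 2. Ratios to H2-Aa (0.5 added to each count) were compared by exact two-sided permutation of libraries, and correlations by 100000 permutations within groups (scipy 1.17.1, numpy 2.4.6, pandas 2.3.3, Python 3.11.15). Levels per kilobase used the exons of RefSeq-linked transcripts. On simulated data for saline against young with 16377 genes, 175 of 200 genes changed by 1.5 on the log2 scale were recovered with 6 false calls. The 10 genes changed by at most 0.77 in that comparison, and recovery of changes of that size was not tested. Alternatives came from edgeR with other settings and from DESeq2 1.42.0. The labels state no pairing of libraries by replicate number. The correlation of same-numbered libraries ran from -0.061 to 0.347 over 6 pairs with age and from -0.144 to 0.335 over 7 pairs with MCC950. Libraries of different number were not set beside them, so these values cannot decide whether the numbers pair libraries. Named genes were the 10 members, the called list genes of largest and smallest fold change, and the 10 genes most like H2-Aa; further genes named were chosen after their values were seen. The members, lists and rules were chosen with earlier results of these data known. A further gene of the interferon gamma list is not reported here.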

Additional observations from a re-analysis of the deposited data

Results flagged for a closer look

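By Dixon's criterion for a gap between the extreme library and its neighbour, a library stood apart from its group in 6 of 57 combinations. Each combination was a gene and a group, by CPM or by percentage of the H2-Aa count. By chance about 1 in 20 independent groups would be flagged. These combinations share libraries and counts, so the 6 flags cannot be weighed against that rate. MCC950 replicate 7 was the highest of its group for H2-DMb2 (33.1 CPM) and H2-Oa (8.96 CPM). As a percentage of the H2-Aa count, saline replicate 5 was the highest of its group for H2-DMb2 (2.31%) and H2-Oa (0.799%), and MCC950 replicate 3 for H2-DMb2 (2.58%) and H2-Ob (5.03%). No classical chain, Cd74 or Ciita value was flagged.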

How the results depend on the processing

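Over 10 members and 13 settings other than leaving out a library, a call was lost 24 times with age, gained 7 times and a direction turned 6 times; with MCC950 against saline 17 directions turned and no call changed, and against young 9 calls were gained and 8 directions turned. The number of members called higher with age, 4, was 6 with DESeq2, 1 with DESeq2's size factors in edgeR, 2 without a filter on low counts, 2 with only the groups compared in the fit, and 8 with the proximal tubule marker level as a covariate. Over the whole table, 1996 of 16377 genes were called higher in the main fit and 2135 of 21934 with DESeq2. For the other settings, in the order given, the counts were 1824 of 16377, 1973 of 21934, 1994 of 15780 and 2693 of 16377. The number of members called higher was 0 with the macrophage and monocyte, dendritic cell, B cell or podocyte marker level as a covariate, where the log2 fold change of H2-Aa, 0.77, was 0.11, 0.20, 0.66 and 0.97 in that order. That of H2-DMb2, 0.66, was 0.35, 0.28, 0.30 and -0.041, and that of H2-Oa, 0.63, was 0.34, 0.27, 0.41 and 0.034. Of all 16377 genes, 1775, 1277, 1021 and 1 were called higher in these fits, in the same order. The macrophage and monocyte covariate gave 1 member called lower with age and 1 in MCC950 against young, the dendritic cell covariate 1 in MCC950 against young, and the proximal tubule covariate 7 called higher there. Of all 16377 genes, the macrophage and monocyte covariate gave 1742 called lower with age and 3122 in MCC950 against young. Against young the dendritic cell covariate gave 2922 called lower, and the proximal tubule covariate 3418 called higher. The cause of these shifts was not tested. With the replicate block 3 members were called higher with age, where 2219 of 16377 genes were. Whether the replicate numbers pair the libraries was not settled.

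When each library was left out in turn, 0 to 7 members were called higher with age and 0 to 2 in MCC950 against young, and 2 to 5 ratios to H2-Aa differed. The correlation of H2-Aa with macrophage and monocyte and with dendritic cell markers stayed past the threshold throughout. Its r ran from -0.031 to 0.26 for B cell, -0.044 to 0.26 for podocyte and -0.18 to 0.23 for endothelial markers. That of H2-Oa with B cell markers ran from 0.40 to 0.71, an alternative chosen after seeing the data.

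Directions turned as follows, none of them called except Ciita with age under the macrophage and monocyte covariate. With the macrophage and monocyte covariate, the log2 fold change was -0.013 for Cd74 and -0.45 for Ciita with age, 0.048 for H2-Ab1, 0.046 for Cd74 and 0.043 for H2-DMb1 with MCC950, and -0.12 for H2-DMa in MCC950 against young. With the dendritic cell covariate it was -0.38 for Ciita with age, 0.021 for H2-Ab1, 0.016 for Cd74, 0.023 for H2-DMb1 and 0.020 for H2-Ob with MCC950, and -0.080 for H2-DMa against young. With the B cell covariate H2-Ob was at -0.0084 with age and -0.013 in MCC950 against young. With the podocyte covariate H2-DMb2 was at -0.041 and H2-Ob at -0.56 with age, H2-Ob at 0.14 with MCC950, and against young H2-DMb2 at -0.095, H2-Oa at -0.16, H2-Ob at -0.42 and Ciita at 0.24. With the proximal tubule covariate the values with MCC950 were 0.47 for H2-Aa, 0.52 for H2-Ab1, 0.46 for H2-Eb1, 0.56 for Cd74, 0.25 for H2-DMa, 0.53 for H2-DMb1, 0.15 for H2-DMb2, 0.19 for H2-Ob and 0.31 for Ciita, and 0.33 for Ciita against young. Leaving out a library took Ciita with age from -0.042 to 0.23. The log2 ratio to H2-Aa then ran with age from -0.0060 to 0.022 for H2-Eb1 and from -0.31 to 0.043 for H2-DMb2. With MCC950 it ran from -0.013 to 0.011 for H2-Eb1, from -0.12 to 0.13 for H2-DMb2, from -0.13 to 0.049 for H2-Oa and from -0.011 to 0.30 for H2-Ob.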

Other observations

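Siglech, a plasmacytoid dendritic cell gene, was called 8.47-fold higher in MCC950 than in young libraries (edgeR adjusted p = 0.0139). Its highest library, MCC950 replicate 8, held 51.3 CPM against a group median of 1.64 CPM, and young libraries held 0.355 to 1.68 CPM; without that library the log2 fold change of Siglech was 0.74 instead of 3.08 and did not pass (edgeR adjusted p = 0.0922). Cd83, which slows the turnover of surface class II molecules, was 1.99-fold higher in MCC950 than in young libraries (edgeR adjusted p = 0.0166) and was not called in the other comparisons. Clec9a, a marker of cross-presenting dendritic cells, had medians of 19.2 CPM in young, 13.2 CPM in saline and 10.3 CPM in MCC950 libraries, while Itgax had 35.9, 63.3 and 40.2 CPM. Clec9a was not called lower with age, and no dendritic cell marker was called between MCC950 and saline libraries.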
